A study of Mus musculus with 39 samples.

Results

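Metallothioneins and the genes that set the zinc content of a cell were followed across ATLAS-Seq sucrose gradients of mouse liver. The 5 genes were taken by name: the metallothioneins Mt1 and Mt2, the transcription factor Mtf1, the importer Slc39a14 and the exporter Slc30a1. All 5 were present for both gradients, among 13230 genes that both gradients shared. ATLAS-Seq sequences the RNA of a liver homogenate that was made without detergent, cleared of nuclei and sedimented through sucrose, so that light structures stay near the top and dense ones move down. The livers came from wild-type FVB female mice, untreated as far as the labels say and of an age the sources used here do not give. Each of the 2 gradients was from 1 mouse. Gradient 1 gave 17 libraries, of fractions 4 to 19 and 21, and gradient 2 gave 22 libraries, of fractions 3 to 24, with 1 library per fraction and fraction numbers rising with density.

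Metallothioneins are small cytosolic proteins whose many cysteines bind zinc, copper and cadmium. The zinc finger protein MTF-1, encoded by Mtf1, senses free zinc and switches on Mt1, Mt2 and Slc30a1 through metal response elements in their promoters. Proteins of the Slc39 (ZIP) family carry zinc into the cytosol, and those of the Slc30 (ZnT) family carry it out of the cytosol, across the plasma membrane or into organelles. In liver, Slc39a14 takes up zinc, manganese and iron from plasma, and ZnT1, the Slc30a1 protein, exports zinc across the plasma membrane. The Slc39 and Slc30 proteins span membranes many times and most are made on ribosomes bound to the endoplasmic reticulum, whereas metallothioneins and MTF-1 are made on ribosomes free in the cytosol.

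The 2 metallothionein coding sequences are shown because their likeness bears on whether reads of one could be assigned to the other. They were read from the GENCODE release M21 transcripts (GRCm38), with the codons TGC and TGT, which code for cysteine, in capitals.
Mt1 coding sequence: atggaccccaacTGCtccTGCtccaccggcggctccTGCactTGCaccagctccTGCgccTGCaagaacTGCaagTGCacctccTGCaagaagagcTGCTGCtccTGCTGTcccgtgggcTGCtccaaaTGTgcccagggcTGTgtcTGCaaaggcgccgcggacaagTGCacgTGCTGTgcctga
Mt2 coding sequence: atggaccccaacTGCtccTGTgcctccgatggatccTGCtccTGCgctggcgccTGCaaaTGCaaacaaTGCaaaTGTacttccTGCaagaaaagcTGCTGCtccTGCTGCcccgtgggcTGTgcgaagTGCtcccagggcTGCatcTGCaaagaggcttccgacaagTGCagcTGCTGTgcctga
Of the 61 codons before the stop codon, 20 coded for cysteine in each gene, 32.8% of the protein. The coding sequences were identical at 148 of 186 positions (79.6%), with a longest identical run of 20 bases. The whole transcripts shared 0 words of 31 bases, the word length that Kallisto uses unless told otherwise, so reads that map by such words separate Mt1 from Mt2.

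The promoters of Mt1, Mt2 and Slc30a1 are shown because these genes are known targets of MTF-1 whose levels are compared between the gradients. Each window holds 250 bases before and 50 after the RefSeq start of the gene in GRCm38.p6, and capitals mark the words TGCACNC and TGCGCNC, the core of the metal response element, on either strand. All 3 genes are on the plus strand.
Mt1 promoter, chr8:94178839-94179138: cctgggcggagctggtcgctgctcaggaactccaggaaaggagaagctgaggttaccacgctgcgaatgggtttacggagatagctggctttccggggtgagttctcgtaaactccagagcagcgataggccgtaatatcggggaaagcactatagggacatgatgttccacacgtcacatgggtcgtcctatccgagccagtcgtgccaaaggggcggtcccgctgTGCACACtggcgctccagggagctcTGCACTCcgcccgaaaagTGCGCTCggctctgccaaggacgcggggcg
Mt2 promoter, chr8:94172368-94172667: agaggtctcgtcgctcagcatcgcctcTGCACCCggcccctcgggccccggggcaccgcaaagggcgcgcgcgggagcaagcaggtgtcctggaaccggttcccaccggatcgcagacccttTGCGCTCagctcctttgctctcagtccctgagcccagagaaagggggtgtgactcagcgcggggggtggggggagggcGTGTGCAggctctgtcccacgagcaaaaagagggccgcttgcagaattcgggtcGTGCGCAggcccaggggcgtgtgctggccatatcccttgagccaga
Slc30a1 promoter, chr1:191906531-191906830: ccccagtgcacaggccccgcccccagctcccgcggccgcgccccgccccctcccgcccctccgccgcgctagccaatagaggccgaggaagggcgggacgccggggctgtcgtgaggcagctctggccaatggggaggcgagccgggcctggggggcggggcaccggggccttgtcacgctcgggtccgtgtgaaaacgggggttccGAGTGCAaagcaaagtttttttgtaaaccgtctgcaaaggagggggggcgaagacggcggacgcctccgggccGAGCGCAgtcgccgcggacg
The Mt1 window held 3 such words, the Mt2 window 4 and the Slc30a1 window 2, with no overlaps between words. At least 1 word was found in 25.7% of 32851 promoter windows of this length and at least 3 in 1.97%. The Mtf1 window held 0. These matches are letters in a window and not measured binding sites.

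The 5 genes lie on 4 chromosomes. In GRCm38, Mt2 (chr8:94172664-94173568) and Mt1 (chr8:94179082-94180327) are neighbors on the plus strand, 5513 bases apart, each with 3 exons, a coding length of 183 nt without the stop codon and RNAs of 511 nt and 549 nt. Mtf1 (chr4:124802104-124849800, plus strand) has 11 exons and an RNA of 7631 nt with 2025 nt of coding sequence. Slc39a14 (chr14:70303469-70351425, minus strand) has 10 exons, an RNA of 4926 nt and 1467 nt of coding sequence. Slc30a1 (chr1:191906767-191913247, plus strand) has 2 exons, an RNA of 5244 nt and 1509 nt of coding sequence. Mt2 and Slc30a1 each overlap an annotated antisense gene, Gm45774 and 1700034H15Rik, and Mtf1 overlaps 1110065P20Rik on the opposite strand. Read on opposite strands, 55.5% of the 31-base words of the Mt2 transcript, 8.42% of those of Slc30a1 and 9.09% of those of Mtf1 occur in these partners. The libraries were stranded, but the quantification is not stated to have used the strand, and without it reads from those stretches cannot be told apart.

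Levels are in TPM, which corrects read shares for transcript length and scales each library to the same total. An equal mass of RNA was put into each library, so a value is the share of a gene in the RNA of its fraction and not the amount of that RNA along the gradient. The totals ran from 998099 to 999074 in gradient 1 and from 998290 to 999202 in gradient 2, and the sequencing depth is unknown. Hepatocyte markers, summed over 10 genes, reached 12988 to 62737 TPM in gradient 1 and 19645 to 51610 TPM in gradient 2. Sums of marker lists of Kupffer cells (10 of 10 genes measured), sinusoidal endothelial cells (8 of 8), stellate cells (8 of 8), cholangiocytes (4 of 6) and erythroid cells (5 of 8) reached 265, 105, 173, 9.43 and 906 TPM at most in any library.

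Mt1 and Mt2 were among the most abundant RNAs of the liver, while the other 3 genes were expressed at low to moderate levels. Averaged over the 17 fractions that both gradients shared, Mt2 was at 2991 TPM ± 2023 (SD, n = 2 gradients) and Mt1 at 2957 TPM ± 2130, a difference far within the spread between gradients. Slc39a14 followed at 34.7 TPM ± 1.11, then Slc30a1 at 12.7 TPM ± 0.903 and Mtf1 at 7.27 TPM ± 0.462. The gaps between these neighbors in the order were larger than the spread between gradients, and the order of these 3 was the same in both. Mt1 held rank 15 in gradient 1 and rank 91 in gradient 2 among 11702 genes with a mean of at least 1 TPM. In the library where it was highest, Mt1 took 1.31% of all TPM in gradient 1 and 0.423% in gradient 2.

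Each metallothionein RNA formed a single hump in the upper middle of the gradient. Mt1 started at 597 TPM in fraction 4 of gradient 1, climbed over fractions 5 to 8 through 917, 2116, 5863 and 11891 TPM, and was highest in fraction 9 at 13032 TPM. It then passed 12994, 9386, 5019 and 2123 TPM in fractions 10 to 13 and lay between 1204 and 2328 TPM in every denser library of that gradient. Gradient 2 had the same shape at a lower level. There, Mt1 rose from 264.5 TPM in fraction 4 through 338, 767, 2016 and 3278 TPM to its maximum of 4228 TPM in fraction 9. It fell through 3596, 2622, 1743 and 1049 TPM in fractions 10 to 13 and ended at 506 TPM in fraction 24. Fractions 8 to 10 held 50.0% of the Mt1 signal summed over the 17 shared fractions in gradient 1 and 45.0% in gradient 2.

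Mt2 followed Mt1 closely. It ran from 742 TPM in fraction 4 to 13300 TPM in fraction 9 of gradient 1, with a median of 2107 TPM over the 17 shared fractions, and from 341 TPM in fraction 4 to 4812 TPM in fraction 9 of gradient 2, with a median of 783 TPM over the same fractions. The highest library held 17.9-fold the lowest in gradient 1 and 14.1-fold in gradient 2. Peaking at fraction 9 in both gradients was uncommon, and 2.84% of all genes tested did so, while 13.2% had their highest library within fractions 8 to 10 in both.

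Mtf1, the zinc sensor, peaked in lighter fractions than its targets Mt1 and Mt2. It was highest in fraction 6 of both gradients, at 17.9 and 15.2 TPM, and lowest in fraction 19 of both over the shared fractions, at 1.80 and 1.82 TPM, with medians over those fractions of 5.63 and 5.39 TPM. Mtf1 was higher in gradient 1 in 12 of 17 fractions. The importer Slc39a14 peaked in fraction 5, at 150 TPM in gradient 1 and 122 TPM in gradient 2, and had medians of 14.4 and 19.1 TPM over the shared fractions. It was lowest in fraction 21 of gradient 1 (7.21 TPM) but in fraction 14 of gradient 2 (13.7 TPM), after which it climbed to 25.9 TPM in fraction 24. The exporter Slc30a1 also peaked in fraction 5, at 63.4 and 52.2 TPM, with medians of 4.45 and 6.52 TPM over the shared fractions, and was lowest in fraction 15 at 2.95 and 3.45 TPM. In gradient 2 it returned to 8.34 TPM in fraction 24, and in gradient 1 to 4.45 TPM in fraction 21. Peaks at fraction 5 in both gradients were common (18% of genes tested), and peaks at fraction 6 in both were not (3.5%).

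**Figure D1:**
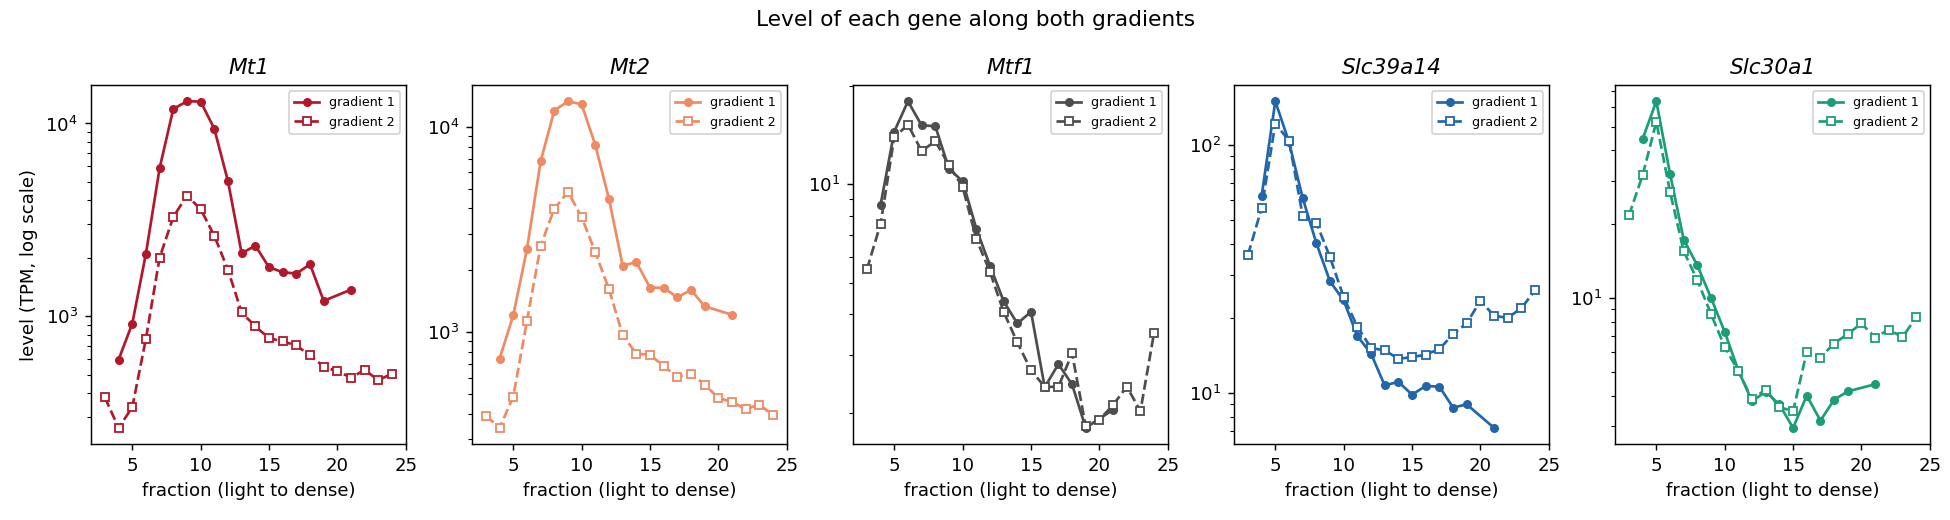
Level (TPM, log scale) of the 5 genes in each library, by fraction from light to dense, with filled circles for the 17 libraries of gradient 1 and open squares for the 22 of gradient 2. Mt1 and Mt2 peak in fraction 9 in both gradients and lie lower in gradient 2 throughout, Mtf1 peaks in fraction 6, and Slc39a14 and Slc30a1 peak in fraction 5 and turn upward at the dense end of gradient 2.

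The profiles of Mt1, Mt2 and Mtf1 had nearly the same shape in both gradients. Those of Slc39a14 and Slc30a1 shared their peak but differed at the dense end. Pearson's R between gradients over the 17 shared fractions was 0.990 for Mt1, 0.987 for Mt2, 0.991 for Mtf1, 0.986 for Slc39a14 and 0.993 for Slc30a1, against a median of 0.900 over all genes. Spearman's rho was 0.975, 0.990, 0.973, 0.723 and 0.892 in the same order. Within a gradient, Mt1 and Mt2 had R = 0.995 in gradient 1 and 0.985 in gradient 2, and Slc39a14 and Slc30a1 had R = 0.941 and 0.929. Mtf1 resembled Slc39a14 (R = 0.781 and 0.804) more than Mt1 (R = 0.427 and 0.461). Mt1 and Slc30a1, both targets of MTF-1, had R = -0.21 and -0.28. Fractions of a gradient share their homogenate and neighbors are not independent, so these values are descriptions over 17 points.

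The center of sedimentation, the mean fraction number weighted by TPM over the 17 shared fractions, put the 5 genes in one order in both gradients. Slc30a1 was lightest, at 7.43 in gradient 1 and 8.48 in gradient 2, followed by Slc39a14 at 7.77 and 8.83, Mtf1 at 9.05 and 9.15, Mt2 at 10.3 and 10.4, and Mt1 at 10.5 and 10.7. The spread between gradients of Slc30a1 (SD 0.739, n = 2) and of Slc39a14 (SD 0.752) exceeded their distance from each other. Over all 22 fractions of gradient 2 the order changed, with Mtf1 at 9.89 and Slc39a14 at 10.2. With log2(TPM + 1) as weights Mtf1 was lightest at 10.6 (mean of both gradients), before Slc30a1 at 10.7 and Slc39a14 at 11.0. The median over all genes was 11.3 in both gradients over the shared fractions. Slc30a1 was lighter than all but 2.38% and 5.87% of genes, Slc39a14 all but 3.86% and 9.16%, and Mtf1 all but 16.4% and 12.7%. Mt1 and Mt2 had 37.4% and 34.3% of genes below them in gradient 1 and 39.3% and 31.4% in gradient 2.

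**Figure D2:**
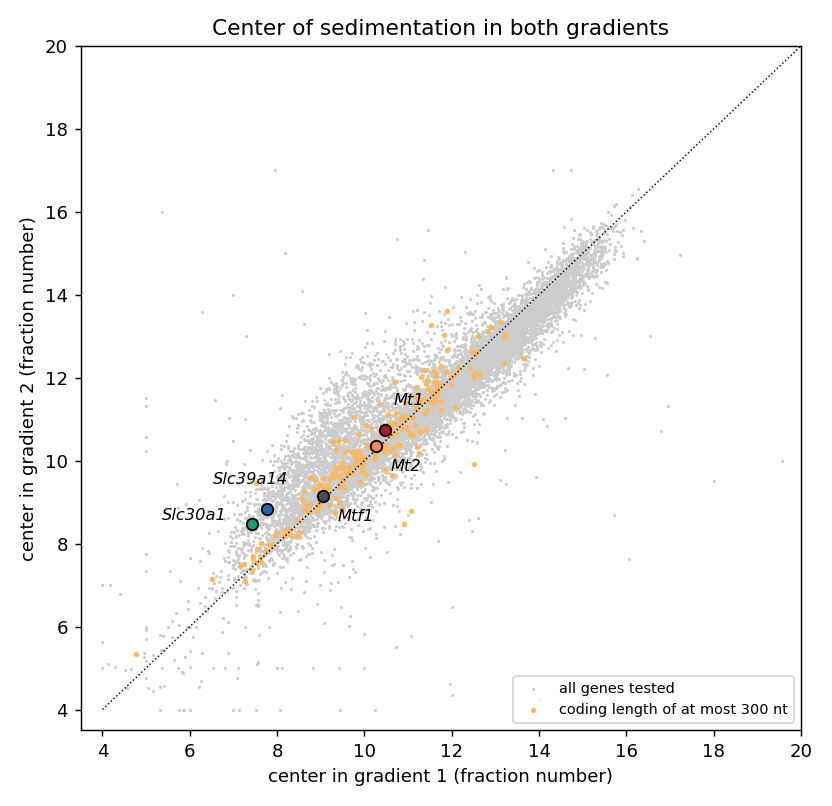
Center of sedimentation (TPM-weighted mean fraction number) of each gene in gradient 1 (horizontal axis) and gradient 2 (vertical axis), with all genes tested in gray, genes of at most 300 nt of coding sequence in orange and the dotted line where both are equal. Mt1 and Mt2 lie near the line and among the short coding genes, and Slc30a1 and Slc39a14 lie at the light end and above the line.

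To test position against the spread between gradients, log2(TPM + 1) was averaged over 4 fractions per zone in each gradient, and the light (fractions 4 to 7), middle (10 to 13) and dense (16 to 19) zones were compared with limma, with p-values adjusted over 11702 genes by the Benjamini-Hochberg method. Slc39a14, Slc30a1 and Mtf1 fell from the light to the dense zone, so 3 of 5 genes were called, where 61.5% of all genes were called in either direction and 39.2% as lower. The zone means of Slc39a14 were 94.1 and 83.4 TPM in the light zone of gradients 1 and 2, 16.4 and 18.2 TPM in the middle zone, and 9.72 and 16.4 TPM in the dense zone. Its dense minus light difference was -2.62 on the log2(TPM + 1) scale (SE 0.27, adjusted p = 7.2e-04). For Slc30a1 the zone means were 39.3 and 31.6 TPM in the light zone, 5.07 and 4.86 TPM in the middle zone and 3.79 and 6.35 TPM in the dense zone. Its difference was -2.48 (SE 0.27, adjusted p = 8.6e-04). Mtf1 went from 14.0 and 12.3 TPM in the light zone through 6.88 and 6.52 TPM to 2.37 and 2.42 TPM in the dense zone. Its difference was -2.03 (SE 0.19, adjusted p = 6.1e-04). For these 3 genes the light zone of both gradients lay above the dense zone of both.

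The same 3 genes had fallen by the middle zone, where 47.2% of all genes were called in either direction, 23.6% as lower and 23.6% as higher. The middle minus light difference was -2.50 for Slc30a1 (adjusted p = 0.0018), -2.23 for Slc39a14 (adjusted p = 0.0022) and -0.89 for Mtf1 (adjusted p = 0.013). The call of Mtf1 was lost when the fraction numbers of gradient 2 were shifted by 1 towards the dense end (-0.60, adjusted p = 0.13, limma). From the middle to the dense zone Mtf1 fell further, by 1.14 (SE 0.19, adjusted p = 0.012), in a comparison that called 27.4% of all genes and 22.6% as lower. That call was lost with zones of fractions 5 to 8, 11 to 14 and 15 to 18 (-0.66, adjusted p = 0.077, limma). Slc39a14 changed by -0.65 in gradient 1 and -0.12 in gradient 2 (adjusted p = 0.34), and Slc30a1 by -0.31 in gradient 1 and 0.34 in gradient 2 (adjusted p = 0.98).

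The rise of the metallothioneins into the middle zone and their fall from it passed the test when the gradients were treated as pairs, and did not without the pairing. The fall also passed with other zone borders and the rise did not. Mt1 had zone means of 2373, 7380 and 1607 TPM in the light, middle and dense zones of gradient 1 and of 847, 2252 and 657 TPM in gradient 2, so the middle zone of gradient 2 lay below the light zone of gradient 1. Without pairing, its middle minus light difference of 1.82 had an SE of 0.74 and an adjusted p of 0.091 in limma, and its dense minus middle difference of -1.78 an adjusted p of 0.13. With the gradient as a replicate block the SE was 0.13 and the adjusted p-values were 3.6e-04 and 9.9e-04 (limma). Mt2 rose by 1.35 and fell by 1.77 with adjusted p = 7.5e-04 and 9.9e-04 in the blocked limma fit, against 0.17 and 0.12 without the block. With zones of fractions 5 to 8, 11 to 14 and 15 to 18, chosen together with the block after seeing the data, the middle minus light difference was 0.26 for Mt1 (adjusted p = 0.098, blocked limma fit) and -0.19 for Mt2 (adjusted p = 0.18). With those zones the dense minus middle difference was -1.08 for Mt1 (adjusted p = 0.0033) and -1.07 for Mt2 (adjusted p = 0.0031). With the zones first given, the rise of Mt1 was 1.89 in gradient 1 and 1.74 in gradient 2, and that of Mt2 was 1.5 and 1.20. Dense minus light, Mt1 differed by 0.04 (SE 0.74, adjusted p = 0.97 without the block and 0.81 with it), and Mt2 by -0.42 (adjusted p = 0.63 without and 0.030 with it). Both values depended on the zones. That of Mt1 was -0.82 with the other zone borders (adjusted p = 0.0018 in the blocked limma fit and 0.38 without the block) and -0.48 with gradient 2 shifted by 1 fraction towards the light end. That of Mt2 was -1.26 with the other zone borders (adjusted p = 3.1e-04 in the blocked limma fit), -0.93 with gradient 2 shifted by 1 fraction towards the light end and -0.015 with it shifted towards the dense end. With the block, 4, 5 and 3 of the 5 genes were called in the dense minus light, middle minus light and dense minus middle comparisons, where 80.4%, 71.9% and 53.7% of all genes were called. Of all genes, the blocked fit called 49.7% as lower dense minus light, 37.3% as higher and 34.5% as lower middle minus light, and 39.5% as lower dense minus middle. Calls over all genes were split unevenly, since 36.3% of those in the dense minus light and 17.6% of those in the dense minus middle comparison were higher. With quantile normalization these shares were 50.8% and 43%, and the median over all genes went from -0.42 to -0.04 and from -0.28 to 0.03, while 3, 3 and 1 of the 5 genes were called as before.

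**Figure D3:**
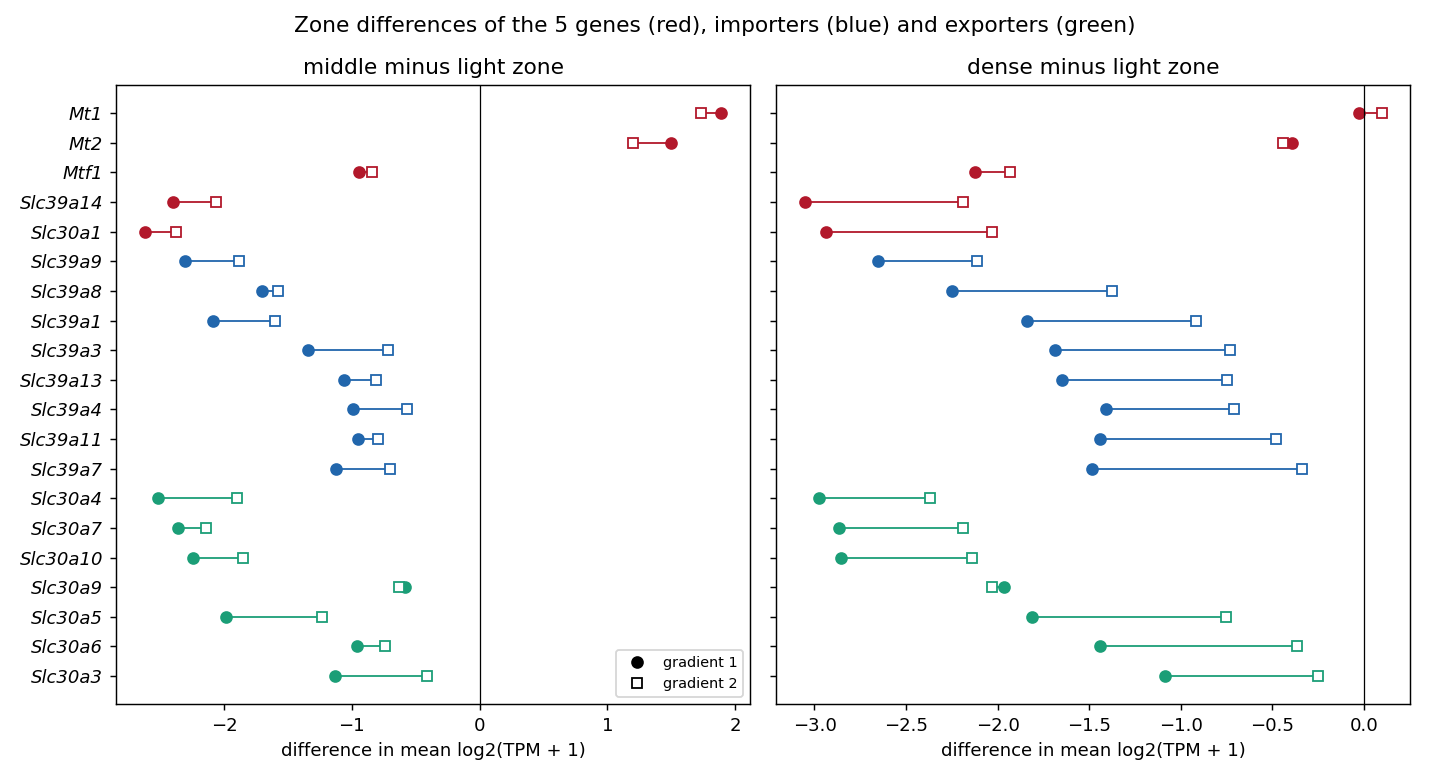
Difference in mean log2(TPM + 1) between zones for the 5 genes (red), 8 other zinc importers (blue) and 7 other exporters (green), middle minus light zone on the left and dense minus light on the right, with filled circles for gradient 1 and open squares for gradient 2. Mt1 and Mt2 lie right of 0 on the left panel in both gradients, and all the transporters lie left of 0 on both panels.

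The ratio of Mt1 to Mt2 was not constant along the gradient. In gradient 1 it was 0.760 in fraction 5, 0.980 in fraction 9 and 1.16 in fraction 18, with a median of 1.01 over 17 libraries. In gradient 2 it was 0.678 in fraction 6, 0.879 in fraction 9 and 1.29 in fraction 24, with a median of 1.03 over 22 libraries. Every library through fraction 9 was below 1 in both gradients (highest 0.992 and 0.973), and from fraction 10 on the lowest values were 0.903 and 0.990. Mt2 thus had the higher TPM of the pair in the light fractions of both gradients. From fraction 10 on Mt1 had the higher TPM in 10 of 11 libraries of gradient 1 and 12 of 15 of gradient 2. If the strand was not used, reads of the antisense gene Gm45774 could count towards Mt2 and not Mt1, which was not tested.

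**Figure D4:**
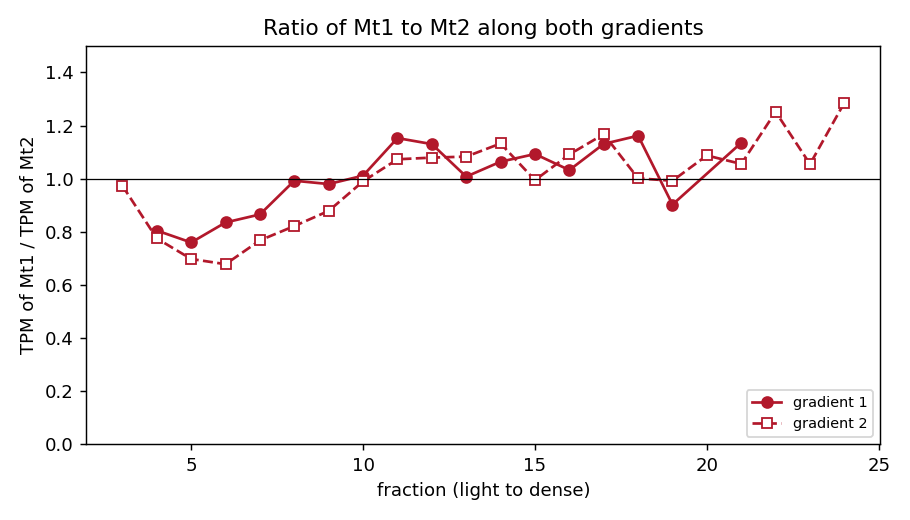
Ratio of the TPM of Mt1 to that of Mt2 in each library, by fraction from light to dense, with filled circles for gradient 1 and open squares for gradient 2 and a line at 1. All libraries through fraction 9 lie below 1, and those from fraction 10 on lie between 0.903 and 1.29.

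The genes whose profiles were most like those of the metallothioneins also encoded small proteins. Likeness was the lower of the 2 gradients' Pearson's R over the 17 shared fractions, among 6729 genes with at least 10 TPM in both gradients. For Mt1 these were Uqcr10, a subunit of respiratory complex III (0.987), Ndufa2, a subunit of complex I (0.983), and Polr2l, a subunit shared by the RNA polymerases (0.983). For Mt2 they were Uqcr10 (0.993), Polr2l (0.991) and Cox8a, a subunit of cytochrome c oxidase (0.989). The coding sequences of these 4 genes were 192 to 297 nt long. Mtf1 was most like Setd5, a SET domain protein (0.987), Zfp106, a zinc finger protein (0.987), and Sall1, a zinc finger transcription factor (0.986), with coding sequences of 3969 to 5664 nt. Slc39a14 was most like the sphingomyelin synthase gene Sgms2 (0.995), Reep3, which encodes a protein of the endoplasmic reticulum (0.993), and the solute carrier gene Slc35e2 (0.993). Slc30a1 was most like Pm20d1, which encodes a secreted enzyme (0.996), the prenylcysteine oxidase gene Pcyox1 (0.995) and the dystroglycan gene Dag1 (0.995).

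The upper middle of the gradient was also where short coding sequences were frequent. Of 234 other genes tested with at most 300 nt of coding sequence, 106 (45.3%) had their highest library in fractions 8 to 10 of both gradients, against 13.2% of all genes. Their median center was 10.4 in gradient 1 and 10.3 in gradient 2, and Mt1 lay above 51.7% and 59.8% of them and Mt2 above 46.6% and 50.4%. Short coding sequences did not all sit there, since 51 of the 234 had their highest library in fractions 4 to 6 of both gradients. The fraction of the highest library also moved with RNA length. Its median was 10 in both gradients over 157 genes with RNAs of up to 600 nt, a class that holds Mt1 and Mt2, and 6 in both over 3391 genes with RNAs over 4000 nt, a class that holds Mtf1, Slc39a14 and Slc30a1. The classes between, over 600 nt and up to 4000 nt, had medians of 9 to 11. The median center differed little between the shortest class (11.12 and 11.22 in gradients 1 and 2) and the longest (11.06 and 10.94). Within the longest class, 1.98% and 4.39% of genes had a lighter center than Slc30a1. For Slc39a14 these shares were 3.48% and 8.73%, and for Mtf1 18.1% and 13.1%. Spearman's rho between RNA length and the center was -0.14 and -0.18 across 10767 genes, which are not independent replicates.

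Most of the other zinc transporters fell from the light zone to the dense zone, and 4 of those tested (Slc30a3, Slc30a6, Slc39a7 and Slc39a11) did not pass the test. Of 24 further zinc genes listed (13 importers, 9 exporters and the metallothioneins Mt3 and Mt4), 17 were measured in both gradients and 15 were tested. Dense minus light, 0 rose and 11 fell, 6 of 8 importers and 5 of 7 exporters, where 39.2% of all genes were called as lower, with a median of -1.28 against -0.42 over all genes. With quantile normalization 7 of the 15 were called, all of them lower, where 60.7% of all genes were called and 29.8% as lower. Middle minus light, 0 rose and 9 fell, where 23.6% of all genes were called as lower, with a median of -1.03 against 0.05. With the gradient as a block, all 15 fell in both comparisons, where 49.7% of all genes were called as lower dense minus light and 34.5% middle minus light. Their median center was 9.22 in gradient 1 and 10.6 in gradient 2, denser than those of Slc39a14 and Slc30a1. The highest library was within fractions 4 to 6 in both gradients for 12 of the 15, against 32.3% of all genes. Dense minus middle, only Slc30a9 of the 15 was called, as lower, without and with the block. Of all genes, 27.4% and 53.7% were called in these 2 fits, 22.6% and 39.5% as lower.

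Slc39a1 (ZIP1), an importer of the plasma membrane, was the most abundant of the importers, Slc39a14 included, at 44.1 TPM in gradient 1 and 57.5 TPM in gradient 2, peaked in fraction 5 and was lower in the dense than in the light zone by -1.38 (adjusted p = 0.019). Besides Slc39a14, Slc39a9 (ZIP9) followed at 20.0 and 22.1 TPM, and it had the largest change among these importers, -2.38 dense minus light (adjusted p = 7.7e-04) and -2.10 middle minus light (adjusted p = 0.0022). Among the exporters besides Slc30a1, Slc30a4 had the largest dense minus light change (-2.67, adjusted p = 5.1e-04) and Slc30a7, which carries zinc into the early secretory pathway, the largest middle minus light change (-2.25, adjusted p = 0.0027). Slc30a10, best known as a manganese exporter of the hepatocyte, was at 13.9 and 6.93 TPM and changed by -2.50 dense minus light (adjusted p = 0.0047).

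Slc30a9, which encodes a zinc transporter of mitochondria, differed from the other transporters in where it peaked and not in its dense minus light change, which was -2.0 (adjusted p = 7.0e-04). It was the most abundant exporter, at 40.7 and 48.8 TPM, and was highest in fraction 8 of gradient 1 and fraction 9 of gradient 2, the only one of the 15 with its maximum in fractions 8 to 10 of both. Its middle minus light difference was -0.61 (adjusted p = 0.052, and 0.0030 with the block), and it fell from the middle to the dense zone by 1.39 (adjusted p = 0.0083). Its center was 9.48 in gradient 1 and 9.36 in gradient 2, within the range of the 15 transporters (7.22 to 9.72 and 8.07 to 11.6).

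Copper handling genes, listed because metallothioneins also bind copper, peaked in different fractions. Of 9 genes tested, 3 rose and 5 fell from the light to the dense zone, where 22.3% of all genes rose and 39.2% fell. Cox17, the copper chaperone of cytochrome c oxidase, peaked in fraction 9 of both gradients, as Mt1 and Mt2 did, and the copper chaperone Atox1 peaked in fraction 10 of both. Ccs, the copper chaperone of superoxide dismutase, peaked in fraction 15 of both, and the plasma ferroxidase gene Cp, which encodes a secreted protein, in fraction 4 of both. Among the lists for orientation, secreted plasma protein genes had a median dense minus light change of -1.72 (16 of 22 fell and 1 rose) and cytosolic enzyme genes of 2.30 (23 of 24 rose and 1 fell).

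The share of metallothionein RNA in the fractions differed between the 2 gradients. Mt1 averaged 4463 TPM in gradient 1 and 1451 TPM in gradient 2, 3.08-fold higher in gradient 1, and Mt2 averaged 4422 and 1560 TPM, 2.83-fold higher. The difference was present in every one of the 17 shared fractions, from 2.02-fold to 3.63-fold for Mt1 and from 2.12-fold to 3.54-fold for Mt2. Past 1.5-fold, 16.4% of all genes were lower in gradient 2, and the median over all genes was 1.14-fold higher in gradient 1. Only 93 of 11702 genes had a lower ratio of gradient 2 to gradient 1 than Mt1, and 113 had a lower one than Mt2. With 1 mouse per gradient the difference has no replicate and was not tested, and a smaller number of expressing cells and less RNA per cell cannot be told apart in such bulk samples.

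The other zinc genes differed less between the gradients. Mtf1 averaged 7.60 and 6.95 TPM in gradients 1 and 2, Slc39a14 34.0 and 35.5 TPM, and Slc30a1 13.4 and 12.1 TPM, none of them past 1.5-fold. The short genes with the most similar profiles were not lower in gradient 2, since Uqcr10 was at 798 TPM in gradient 1 and 960 TPM in gradient 2 and Cox8a at 912 and 921 TPM. Of the 234 short coding genes, 2 had a lower ratio of gradient 2 to gradient 1 than Mt1. Over all genes 93 of 11702 did, a similar share. Of the 15 other zinc transporters, Slc30a10 (2.01-fold) and Slc30a3 (1.55-fold) were higher in gradient 1 past 1.5-fold, and Slc39a11 was 2.21-fold higher in gradient 2. Past 1.5-fold, 16.4% of all genes were higher in gradient 1 and 6.52% in gradient 2, so these counts were near the shares over all genes. Slc30a3 averaged only 1.73 and 1.12 TPM.

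**Figure D5:**
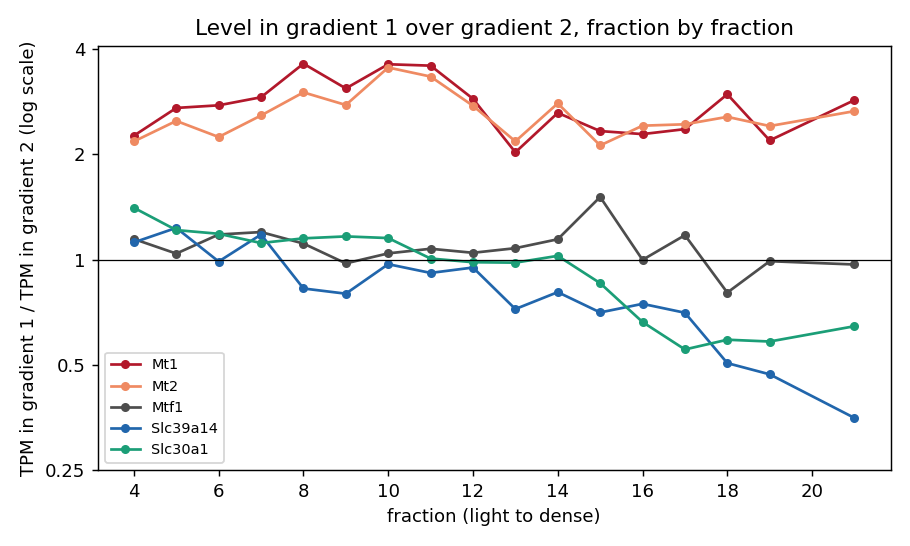
TPM in gradient 1 divided by TPM in gradient 2 (log scale) in each of the 17 shared fractions for the 5 genes, with a line at equality. Mt1 and Mt2 lie between 2.02 and 3.63 in all fractions, Mtf1 lies between 0.804 and 1.51, and Slc39a14 and Slc30a1 fall below 1 in the dense fractions.

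Slc39a14 and Slc30a1 differed between gradients mainly in the dense fractions. Slc39a14 was 1.23-fold higher in gradient 1 at fraction 5 and had a ratio of 0.353 of gradient 1 to gradient 2 at fraction 21. Slc30a1 was higher in gradient 1 in 9 of 17 fractions, and its ratio ran from 1.41 in fraction 4 to 0.553 in fraction 17. Their centers were denser in gradient 2 by 1.06 and 1.05 fractions, and those of Mt1, Mt2 and Mtf1 by 0.265, 0.0779 and 0.101. Of the 15 other zinc transporters, 14 were denser in gradient 2 (median shift 1.29), Slc30a9 being the exception at -0.11, and all 22 secreted plasma protein genes were denser as well (median shift 1.87). Over all genes, 42.2% were denser in gradient 2, with a median shift of -0.095.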

How the data were processed

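RNA was measured in 39 libraries of liver fractions from 2 gradients. The authors prepared stranded libraries depleted of ribosomal RNA, pseudo-aligned reads with Kallisto (version not given in the sources used here) to RefSeq transcripts of mm10, and deposited 1 TPM value per gene and library, having dropped genes that did not exceed 1 TPM anywhere in the gradient. TPM holds no counts, so depth is unknown, no count model was used, and precision rests on the spread between the 2 gradients. The submitters' notes also name bcl2fastq 2.16.0.10. The number of value columns without a sample was 0.

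Genes of both gradients with a mean of at least 1 TPM over the 17 shared fractions were tested (11702). log2(TPM + 1) was averaged over 4 fractions in each of 3 zones and gradient, and the 6 values per gene (24 libraries) were fitted in limma 3.58.1 (R 4.3.3, trend in eBayes, two-sided, adjusted p threshold 0.05). On this scale changes of low genes are understated. Zones of a gradient come from 1 homogenate, so the gradient pairs them, and what set a gradient apart in one zone recurred in the others (correlation over genes of the departures from the zone mean r = 0.665 for light and middle, 0.541 for light and dense, 0.799 for middle and dense). A fit with the gradient as a block was therefore also made. Levels, centers and profile likeness were described without a test. The limma fit without the block was tested on simulated data with independent errors, so that test covers neither the pairing nor the blocked fit.

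The members and lists were chosen with earlier results of these data known. Named genes were the 5 members, the 3 genes most like each, the 2 most abundant genes of each zinc transporter list and, per comparison and list, the called gene with the largest change, and Slc30a3, Slc39a11 and the copper, acute phase and glucocorticoid genes were named after their values were seen. Short coding genes were defined from GENCODE M21 coding lengths of at most 300 nt, since a protein table was not used here. GRCm38 is the assembly of mm10. Lengths were found for 10767 of 11702 genes (92%), and promoters for 4 of 5 members in RefSeq's GRCm38.p6 table. Alternatives were another pseudocount (0.1), other filters, quantile normalization, rescaling with the top 50 genes set aside, other zone borders, shifted fraction numbers, the block and each gradient alone. Descriptions and plots were made in Python 3.11.15 with SciPy 1.17.1, Matplotlib 3.10.9, pandas 2.3.3 and NumPy 2.4.6.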

Additional observations from a re-analysis of the deposited data

How the results depend on the processing

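Depth is unknown and each zone has 2 values, so the precision of every value is limited by 2 gradients, and a single gradient leaves no residual spread to test the calls. Each gradient alone kept the direction of every called member change, and the level ratio needs both. Of 132 tested alternative values of the members' zone changes, without those of the block and other zones together, 119 kept their direction and side of the threshold, 6 newly passed it, 2 no longer did and 5 changed sign, and the causes were not tested. The sign changes were of values that had not passed the threshold without the block, and Mt2 middle minus light had passed it with the block. Mt1 dense minus light went to -0.079 with quantile normalization, -0.82 with zones of fractions 5 to 8, 11 to 14 and 15 to 18, and -0.48 with gradient 2 shifted by 1 towards the light end. Mt2 middle minus light went to -0.19 with the other zones, where Mt1 was at 0.26, and Slc30a1 dense minus middle to -0.20 with gradient 2 shifted towards the dense end. Mtf1 no longer passed middle minus light with that shift (adjusted p = 0.13, limma) or dense minus middle with the other zones (adjusted p = 0.077), and Mt1 passed middle minus light with that shift (2.37, adjusted p = 0.037).

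With the gradient as a replicate block, middle minus light called 5 members in place of 3 and 15 other zinc genes in place of 9, and dense minus middle called 3 members in place of 1. The block called Mt1 and Mt2 in addition and lost no member. With the block and the other zones together, chosen after seeing the data, 5 members were called dense minus light, with Mt1 at -0.82, 15 other zinc genes middle minus light, and 3 members dense minus middle (82.4%, 74.9% and 45.8% of all genes were called in these comparisons), while Mt1 and Mt2 were not called middle minus light. Requiring a mean of 10 TPM left 5 other zinc genes to test, of which 5 were called dense minus light and 4 middle minus light (65.8% and 54.3% of all genes), and called 0 members dense minus middle (39.7% of all genes). Quantile normalization called 7 other zinc genes dense minus light in place of 11 (60.7% of all genes), and the other zones called 0 members dense minus middle (11.3% of all genes). The first count of 0 is over 4 members, since Mtf1 is below 10 TPM. In limma, 0 and 1 members had an unadjusted p under 0.05 in these 2 fits.

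Centers moved to 11.0 (Mt1), 10.6 (Mt2) and 9.47 (Mtf1) over all fractions of each gradient, to 11.9, 11.9, 10.6, 11.0 (Slc39a14) and 10.7 (Slc30a1) with log2(TPM + 1) weights, and to 9.65 for Mtf1 with quantile normalization. The log2 ratio of gradient 2 to gradient 1 was -1.76 for Mt2 and -0.33 for Mtf1 over all fractions and 0.55 for Slc30a1 with medians, and over the alternatives the fold of gradient 1 over gradient 2 ran from 2.74 to 3.63 for Mt1 and from 2.62 to 3.40 for Mt2. With gradient 2 shifted towards the light and dense end, R between gradients was 0.854 and 0.865 for Mt1, 0.809 and 0.904 for Mt2, 0.909 and 0.894 for Mtf1, 0.801 and 0.707 for Slc39a14, and 0.815 and 0.754 for Slc30a1.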

Other observations

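Some genes of the acute phase list and of the glucocorticoid and fasting list also differed between the 2 gradients, and they are given as values. Metallothioneins are known to be induced by glucocorticoids and in the acute phase response. Of 16 acute phase genes, 5 were past 1.5-fold higher in gradient 2 and 0 lower, the direction opposite to that of Mt1 and Mt2. The acute phase genes were Saa1 (1.72-fold), Saa2 (2.28-fold), Saa3 (1.90-fold), Saa4 (1.65-fold) and Orm1 (1.63-fold). Saa1 and Saa2 are near-identical copies whose reads may be shared, and their values are uncertain. Their profiles also differed between the gradients (R = -0.09 and -0.21), peaking in fractions 7 and 8 of gradient 1 and in fraction 18 of gradient 2. Of 9 glucocorticoid and fasting genes, 3 were past 1.5-fold higher in gradient 2 and 2 higher in gradient 1, where 6.52% and 16.4% of all genes were. The 3 were the glucocorticoid-induced leucine zipper gene Tsc22d3 (2.23-fold) and the genes Tat (1.85-fold) and Pck1 (1.76-fold) of amino acid breakdown and gluconeogenesis. In the same list Fkbp5 (1.70-fold) and Zbtb16 (1.85-fold) were higher in gradient 1. With 1 mouse per gradient none of these differences was tested.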
